A study of Mus musculus with 16 samples.

Results

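The mitochondrial ribosomal protein genes were described here across macrophages alone and macrophages given apoptotic cells. They were taken as genes whose symbol is Mrpl or Mrps followed by a number, without the pseudogene symbols that end in -ps, and with a summed count of at least 100 over the 16 libraries. The rule gave 77 genes of the 55416 in the table, 48 with a large subunit symbol (Mrpl) and 29 with a small subunit symbol (Mrps). Within the family, the value that chose them was the summed count over all groups, and no difference between groups entered that cutoff. The family itself was chosen with earlier results of these data known. The least counted genes inside the rule were Mrps36 with 495 counts in all, Mrps28 with 898, Mrps6 with 1587 and Mrps33 with 1951. Outside it, Mrpl53 had 0 counts in every library, and 88.0% of its annotated exon bases are shared with another gene model on the same strand. The 5 pseudogene symbols had 0 to 89 counts in all, the highest being Mrpl23-ps1. All 77 genes passed the filter on low counts that left 14168 genes for testing.

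Mitochondria carry their own ribosome, which translates the few messages of mitochondrial DNA into core subunits of the respiratory chain and of ATP synthase. Its 2 ribosomal RNAs, mt-Rnr1 of the small subunit and mt-Rnr2 of the large subunit, are transcribed in the organelle, while all of its proteins are encoded by nuclear genes, made in the cytosol and imported. Some of these proteins have counterparts in bacterial ribosomes and others are particular to mitochondria. In macrophages, respiration is known to change with activation and with the uptake of dying cells.

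RNA came from Hoxb8 macrophages, a mouse line grown from bone marrow progenitors that are held immature by the transcription factor Hoxb8. One group was kept alone (4 libraries), and in 3 groups of 4 libraries the cells engulfed dying Jurkat cells for 45, 90 or 180 min, Jurkat being a leukaemia line of human T cells, added in an apoptotic state. All groups share the same line, no other genotype or agent is named in the labels, and libraries of total RNA were made with a strand-marking kit once ribosomal RNA had been removed. When the macrophages alone were collected is not given, so time in culture and exposure cannot be told apart, and neither is whether replicate libraries are separate cultures, so p-values cover the spread between these libraries, which may be technical.

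Counts per library summed to 18.7 M to 27.7 M in macrophages alone, 24.4 M to 41.7 M at 45 min, 13.6 M to 17.4 M at 90 min and 10.7 M to 23.4 M at 180 min. All 10 macrophage markers examined were present, with summed levels (CPM, counts scaled to the same library total) of 10800 to 11000 in macrophages alone, 11700 to 12700 at 45 min, 10500 to 11000 at 90 min and 9920 to 11300 at 180 min. Of 12 T cell markers, Cd3e, Cd3g, Cd2, Bcl11b and Tcf7 had 0 counts in every group, and the summed level of all 12 was 9.05 to 14.3 CPM. Nearly all of that sum was Cd28, at 9.55 to 12.3 CPM by group. The markers are mouse genes, Jurkat cells are human, and how human reads were handled is not given. These counts therefore do not show whether Jurkat RNA was present. Neutrophil markers summed to at most 5.22 CPM and progenitor markers to at most 1.97 CPM. Mitochondrially encoded genes held 4.45% ± 0.223 of counts in macrophages alone, 3.54% ± 0.178 at 45 min, 5.88% ± 0.546 at 90 min and 7.0% ± 0.611 at 180 min (SD, n = 4 each). In bulk RNA, fewer cells of a type and less RNA per cell cannot be told apart.

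Promoter sequence was available for 68 of the 77 genes, in 74 windows that run from 250 bases before to 50 bases after the start (RefSeq, build GRCm38.p6). Both strands were searched for 5 short motifs. The NRF1 motif GCGCANGCG was in 21.6% of the genes' windows against 6.25% of all 32851 windows in the table, the ETS motif CCGGAAGT in 16.2% against 3.89%, and the YY1 motif AAGATGGCG in 10.8% against 1.40%. The SP1 motif GGGCGG was in 52.7% against 35.7% and the E-box CACGTG in 9.46% against 7.15%. At least 1 of the NRF1, ETS and YY1 motifs was in 34 of the 74 windows, or 45.9%, against 10.6% of all windows. None of the 5 motifs was found in 21.6% of the genes' windows, against 57.3% of all windows. All windows were taken without a limit to coding genes or to genes that passed the filter on low counts. The 77 genes are all coding and all passed it, so the sets differ in more than the family. A match is a match of letters and does not show that a factor binds there. The 150 bases before the start are printed for 6 genes on which the results below turn, 5′ to 3′ on the gene's own strand, with motif matches in capitals. Mrpl45, Mrpl30 and Mrpl10 were lower at 90 min than at 45 min, and each carries the NRF1 motif in this stretch, at chr11:97315566-97315715 (+ strand), chr1:37890327-37890476 (+ strand) and chr11:97041432-97041581 (+ strand).
Mrpl45: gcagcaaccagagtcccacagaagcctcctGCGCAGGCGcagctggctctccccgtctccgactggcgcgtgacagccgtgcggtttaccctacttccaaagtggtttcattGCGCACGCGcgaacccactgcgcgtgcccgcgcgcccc
Mrpl30: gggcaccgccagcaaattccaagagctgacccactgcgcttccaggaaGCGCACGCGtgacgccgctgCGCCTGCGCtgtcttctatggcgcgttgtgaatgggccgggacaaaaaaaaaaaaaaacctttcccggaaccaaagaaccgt
Mrpl10: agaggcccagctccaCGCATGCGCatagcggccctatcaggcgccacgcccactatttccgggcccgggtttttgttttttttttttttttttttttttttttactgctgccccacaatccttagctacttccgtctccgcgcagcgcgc
Mrps26 and Mrpl37 were higher with apoptotic cells than without at 45, 90 and 180 min, and Mrps10 at 90 and 180 min only. The stretches of Mrps26, Mrpl37 and Mrps10 lie at chr2:130563607-130563756 (+ strand), chr4:107066867-107067016 (- strand) and chr17:47369047-47369196 (+ strand). In these stretches Mrps26 carries an ETS and an SP1 match, Mrpl37 carries SP1 matches, and Mrps10 carries none of the 5 motifs. Outside the printed stretch, the window of Mrps26 also holds the NRF1 motif and that of Mrpl37 the YY1 motif and the E-box.
Mrps26: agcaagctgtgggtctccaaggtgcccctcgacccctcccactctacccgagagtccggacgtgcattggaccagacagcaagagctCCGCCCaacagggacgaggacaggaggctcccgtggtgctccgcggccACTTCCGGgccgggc
Mrpl37: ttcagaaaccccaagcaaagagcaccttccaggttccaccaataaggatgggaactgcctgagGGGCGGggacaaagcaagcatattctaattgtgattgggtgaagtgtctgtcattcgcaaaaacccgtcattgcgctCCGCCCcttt
Mrps10: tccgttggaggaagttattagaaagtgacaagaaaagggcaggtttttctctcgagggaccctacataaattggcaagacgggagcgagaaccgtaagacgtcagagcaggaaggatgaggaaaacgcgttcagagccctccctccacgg
These 6 genes were picked for their values, so which motif stands beside which direction is a description of 6 stretches and was not tested. The NRF1 motif was in the windows of both kinds of gene. It was found for 6 of the 10 genes with a window among the 12 that were called lower at 90 than at 45 min, and for 3 of the 8 with a window among the 10 called higher than macrophages alone at some time. Mrpl10, which carries the motif, is in both of these sets. The window of Mrpl16, which was also lower at 90 min than at 45 min, holds none of the 5 motifs.

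In macrophages alone the 77 genes spanned a 21.1-fold range of level per transcript length, from 2.10 to 44.2 CPM per kilobase, with a median of 13.5 and the middle 50% of genes between 6.96 and 19.1. The genes with large subunit symbols had a median of 14.9 CPM per kilobase and those with small subunit symbols 10.8. Over all groups the top of the order was Mrpl30, Mrpl52, Mrps18a, Mrpl42 and Mrpl24. In macrophages alone Mrpl30, a counterpart of bacterial L30, stood at 44.2 ± 1.13 CPM per kilobase (SD, n = 4), Mrpl52 at 39.4 ± 2.38, Mrps18a at 38.6 ± 2.17, Mrpl42 at 36.3 ± 3.29 and Mrpl24 at 28.3 ± 2.03. Mrpl30 lay above Mrpl52 by more than their spread, and Mrpl42 above Mrpl24, while Mrpl52, Mrps18a and Mrpl42 did not differ from each other beyond theirs. At 180 min Mrpl52 came first at 41.8 ± 5.32, followed by Mrpl30 at 38.6 ± 1.79 and Mrps18a at 38.5 ± 1.38, which did not differ from each other beyond their spread. At 90 min Mrpl30 (39.7 ± 3.88) and Mrpl52 (39.6 ± 7.48) did not differ beyond theirs either. Despite its symbol, Mrps18a encodes a protein of the large subunit, as does Mrps30. The bottom of the order was Mrps36 at 2.10 ± 0.824 CPM per kilobase, Mrps26 at 2.40 ± 0.299, Mrps25 at 2.44 ± 0.148, Mrpl48 at 2.68 ± 0.156 and Mrps35 at 2.77 ± 0.542, and neighbours among these 5 overlapped. Mrps36 carries the family's symbol but is known as a part of the oxoglutarate dehydrogenase complex rather than a stable subunit of the ribosome. The length used was that of the longest principal coding transcript of the annotation, 418 to 7300 bases, so a gene whose long transcript is rarely used would be placed too low.

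**Figure D1:**
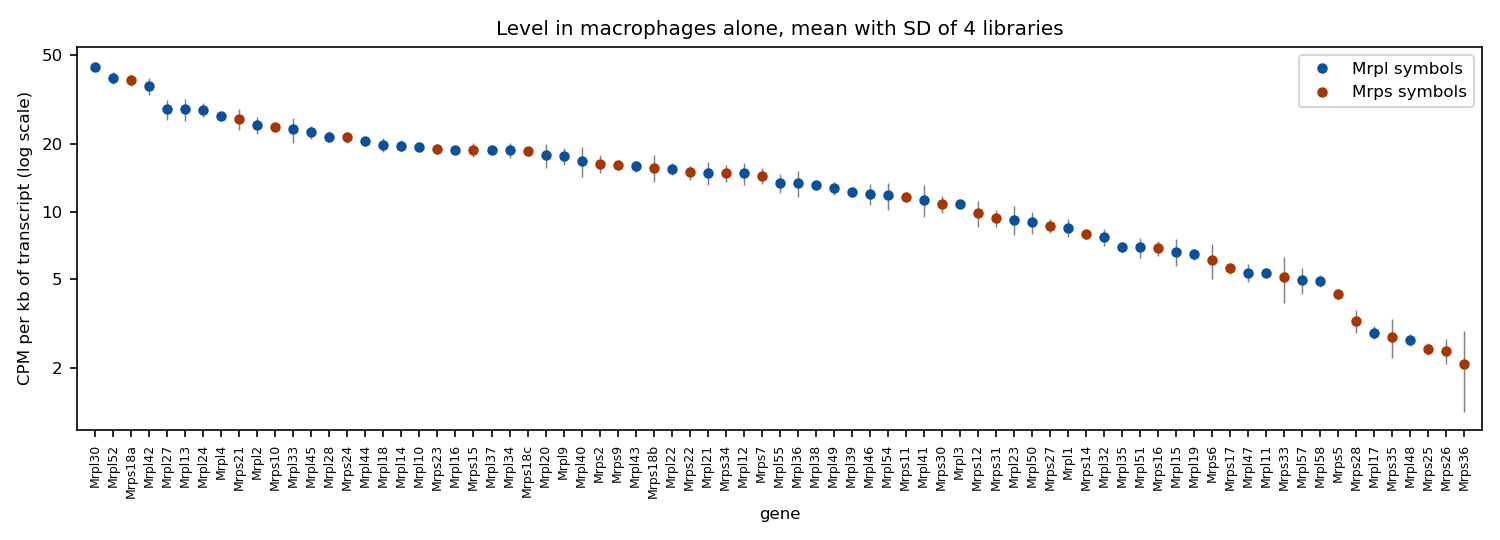
Level of each of the 77 genes in macrophages alone, as CPM per kilobase of transcript on a log scale, with the mean and SD of 4 libraries and colours for large (Mrpl) and small (Mrps) subunit symbols. Levels run from 2.10 (Mrps36) to 44.2 (Mrpl30), and both kinds of symbol are spread along the order.

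Together the 77 genes took 0.156%, 0.156%, 0.160% and 0.158% of all counts in the libraries of macrophages alone and 0.166%, 0.160%, 0.166% and 0.163% at 45 min. At 90 min their share was 0.152%, 0.154%, 0.155% and 0.152%, and at 180 min it was 0.166%, 0.163%, 0.155% and 0.158%. Every library of 90 min thus lay below every library of macrophages alone and of 45 min, while the libraries of 180 min overlapped both. The group means were 0.157% ± 0.00184, 0.164% ± 0.00307, 0.153% ± 0.00161 and 0.161% ± 0.00472 (SD, n = 4 each). Set against counts of nuclear genes only, the means were 0.165%, 0.170%, 0.163% and 0.173%, and the 90 min libraries (0.160% to 0.165%) then overlapped those of macrophages alone (0.163% to 0.167%). The mitochondrial counts, whose share was higher in every library of 90 and 180 min than in any of macrophages alone, are in the first denominator and not in the second.

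The genes with large subunit symbols held 2.05 to 2.16 counts for each count of those with small subunit symbols in macrophages alone and 2.12 to 2.19 at 45 min. The ratio was 1.95 to 2.08 at 90 min and 1.96 to 2.07 at 180 min. Libraries of 90 and 180 min overlapped macrophages alone but lay below every library of 45 min. Both counts of this ratio come from the same library, so neither depth nor the mitochondrial share enters it. The 2 ribosomal RNAs moved far more than the protein genes. Of all counts they were 4.23% ± 0.217 in macrophages alone, 3.36% ± 0.181 at 45 min, 5.57% ± 0.532 at 90 min and 6.57% ± 0.555 at 180 min, or 26.9, 20.6, 36.3 and 41.0 counts for each count of a protein gene. Since ribosomal RNA was depleted before sequencing, these levels of mt-Rnr1 and mt-Rnr2 also depend on the depletion, and its part was not tested.

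**Figure D2:**
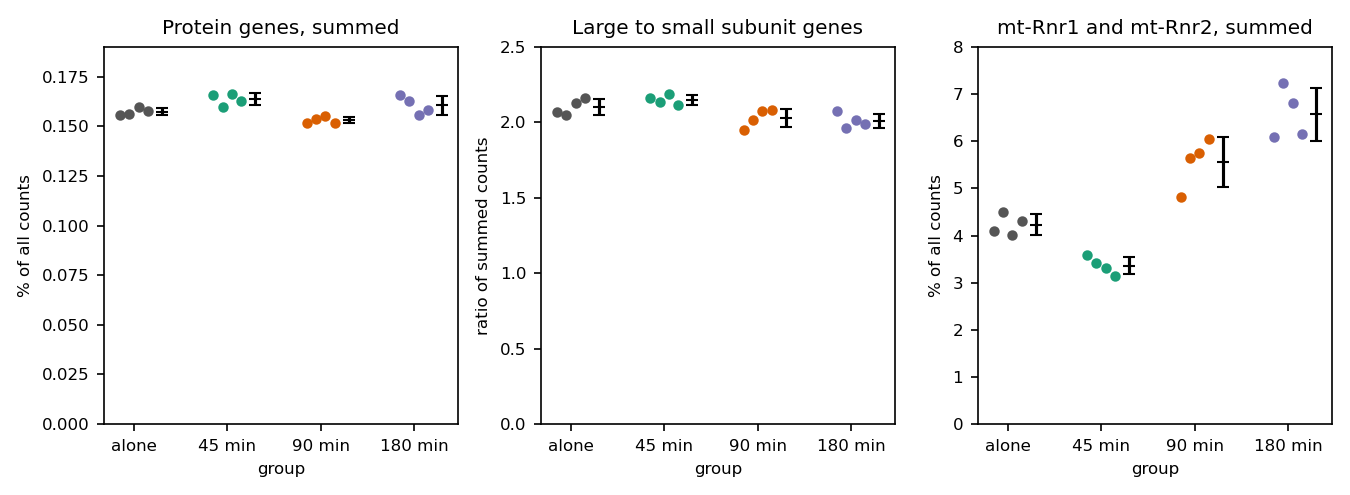
Each point is 1 library, and the bar beside each group gives the mean and SD of 4. Left, summed share of counts of the 77 genes; middle, ratio of summed counts of large to small subunit symbols; right, share of mt-Rnr1 and mt-Rnr2. The protein genes stay between 0.152% and 0.166%, while the ribosomal RNAs range from 3.15% to 7.25%.

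Each time was compared with macrophages alone, and the times with each other, by edgeR's quasi-likelihood test with Benjamini-Hochberg adjustment over all genes, with a call at an adjusted p under 0.05. Changes were small: all 6 log2 fold changes of all 77 genes lay between -1 and 1, and against macrophages alone only Mrpl23 at 180 min was beyond 0.5 in size. Of the 77 genes, 31 were called in at least 1 of the 6 comparisons and 46 in none. The share of all genes called in at least 1 was not computed, but 36.4% were called from 45 to 180 min alone. The test for any change among the 4 groups, macrophages alone included, called 21 of 77, or 27.3%, against 44.6% of all genes tested. Against macrophages alone 10 genes rose and 4 fell at some time, none in both directions, and Mrpl37 and Mrps26 rose at all 3 times. The share of all genes called at some time against macrophages alone was not computed. At 180 min alone, 9.09% of the 77 rose and 3.90% fell, beside 15.1% and 16% of all genes tested.

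At 45 min 5 of the 77 genes rose and 0 fell against macrophages alone, beside 4.69% of all genes tested that rose and 6.11% that fell. Their median log2 fold change was 0.07, and 57 of the 77 lay above 0, while the median over all genes was 0.00. At 90 min 5 rose and 2 fell, beside 11.1% and 9.97% of all genes, and the median was -0.05. At 180 min 7 rose and 3 fell, beside 15.1% and 16%, with a median of -0.01. The genes called were Mrpl10, Mrpl17, Mrpl19, Mrpl37 and Mrps26 at 45 min; Mrpl17, Mrpl24, Mrpl37, Mrps10 and Mrps26 higher and Mrpl44 and Mrpl45 lower at 90 min; and Mrpl19, Mrpl23, Mrpl37, Mrps2, Mrps10, Mrps26 and Mrps35 higher and Mrpl13, Mrpl30 and Mrpl45 lower at 180 min. With each library corrected for a trend in gene length and GC, 4 (5.19%) rose and 10 (12.99%) fell at 90 min and 5 (6.49%) rose and 14 (18.2%) fell at 180 min. All genes tilted the same way in that fit, with 9.68% higher and 15.2% lower at 90 min and 12.7% and 21.4% at 180 min. Single libraries moved these counts. At 45 min the number that rose was 1 without library 1 of macrophages alone or library 1 of 45 min, 2 without library 2 or 4 of macrophages alone or library 4 of 45 min, and 3 without library 3 of 45 min. At 90 min it was 3 without library 3 of 90 min, and the number that fell was 4 without library 2 of 90 min and 5 without library 2 or 3 of 180 min. At 180 min 4 rose without library 4 of macrophages alone or library 3 of 180 min, 1 fell without library 3 of macrophages alone or library 4 of 180 min, and 5 fell without library 1 of 180 min. Libraries are numbered within a group in file order.

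Between 45 min and the later times, more of the 77 genes were called lower than higher. From 45 to 90 min 2 (2.60%) rose and 12 (15.6%) fell, beside 14.8% of all genes that rose and 13.3% that fell. The median of the 77 was -0.11 and 56 lay below 0, while the median over all genes was 0.02. From 45 to 180 min 7 (9.09%) rose and 13 (16.9%) fell, beside 18.3% and 18.0%, with a median of -0.08 and 52 genes below 0. From 90 to 180 min only Mrps2 rose and 0 fell, beside 4.45% and 6.97%, with a median of 0.03. From 45 min to each later time the share that fell was thus near that of all genes, and the share that rose was below it. With the length and GC trend removed, 0 rose and 28 (36.4%) fell from 45 to 90 min, beside 10.1% and 21.9% of all genes, and 2 (2.60%) rose and 22 (28.6%) fell from 45 to 180 min, beside 13.5% and 27.2%. The median of all genes was -0.06 and -0.07 in that fit. Among all 77, 12 (15.6%) had every library of 90 min below every library of 45 min and 2 (2.60%) had every one above, beside 12.2% and 12.9% of all genes. The macrophage markers were also lower after 45 min: 4 of 10 rose at 45 min against macrophages alone (median 0.11), 8 fell from 45 to 90 min (median -0.18) and 9 fell from 45 to 180 min (median -0.21). Their part in the calls of the 77 genes was not tested. In the first of these comparisons the number that rose was 0 without library 4 of 45 min and 1 without library 1, 2 or 3 of 45 min or library 1, 2 or 3 of 90 min. In the second, from 45 to 180 min, the number that rose was 2 without library 2 of 45 min or library 2 of 180 min, 3 without library 1, 3 or 4 of 45 min or library 1 or 3 of 180 min, and 4 without library 3 of macrophages alone, and the number that fell was 8 without library 1 or 3 of 45 min or library 3 of 180 min. From 90 to 180 min 2 rose without library 1 or 2 of 90 min or library 1 or 3 of 180 min and 3 without library 4 of 90 min. The 3 comparisons with macrophages alone share those libraries, and comparisons between times share libraries too, so the calls are not independent of each other. The shares of counts of mitochondrial genes moved with these comparisons, and leaving those genes out of the scaling kept all 57 calls of the 6 comparisons.

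**Figure D3:**
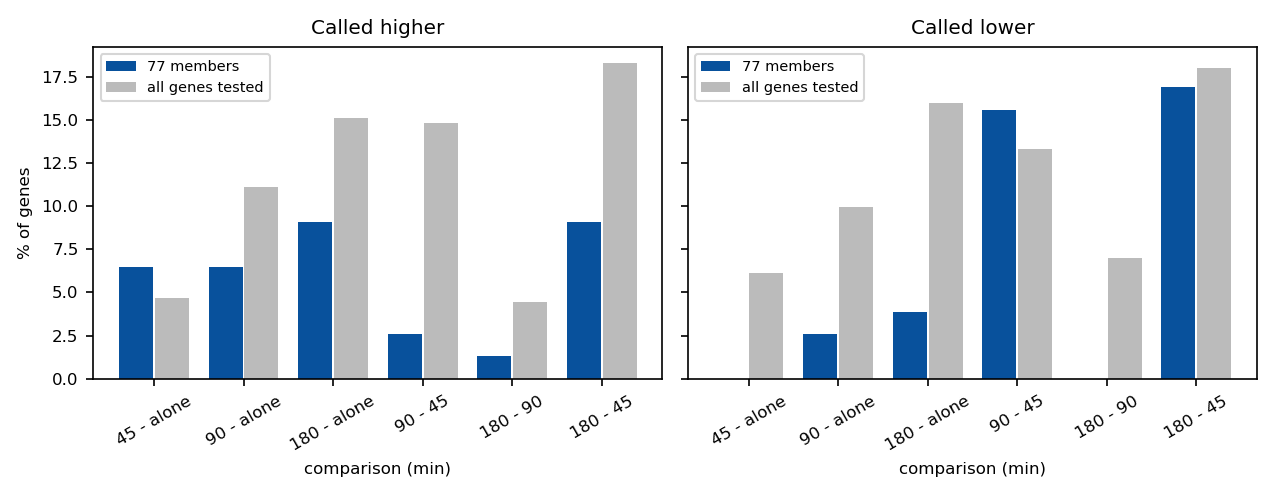
Share of genes called higher (left) and lower (right) in each of the 6 comparisons, in percent, for the 77 genes (blue) and all 14168 genes tested (grey). The genes' share lies below that of all genes except for those higher at 45 min (6.49% against 4.69%) and those lower at 90 than at 45 min (15.6% against 13.3%).

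**Figure D4:**
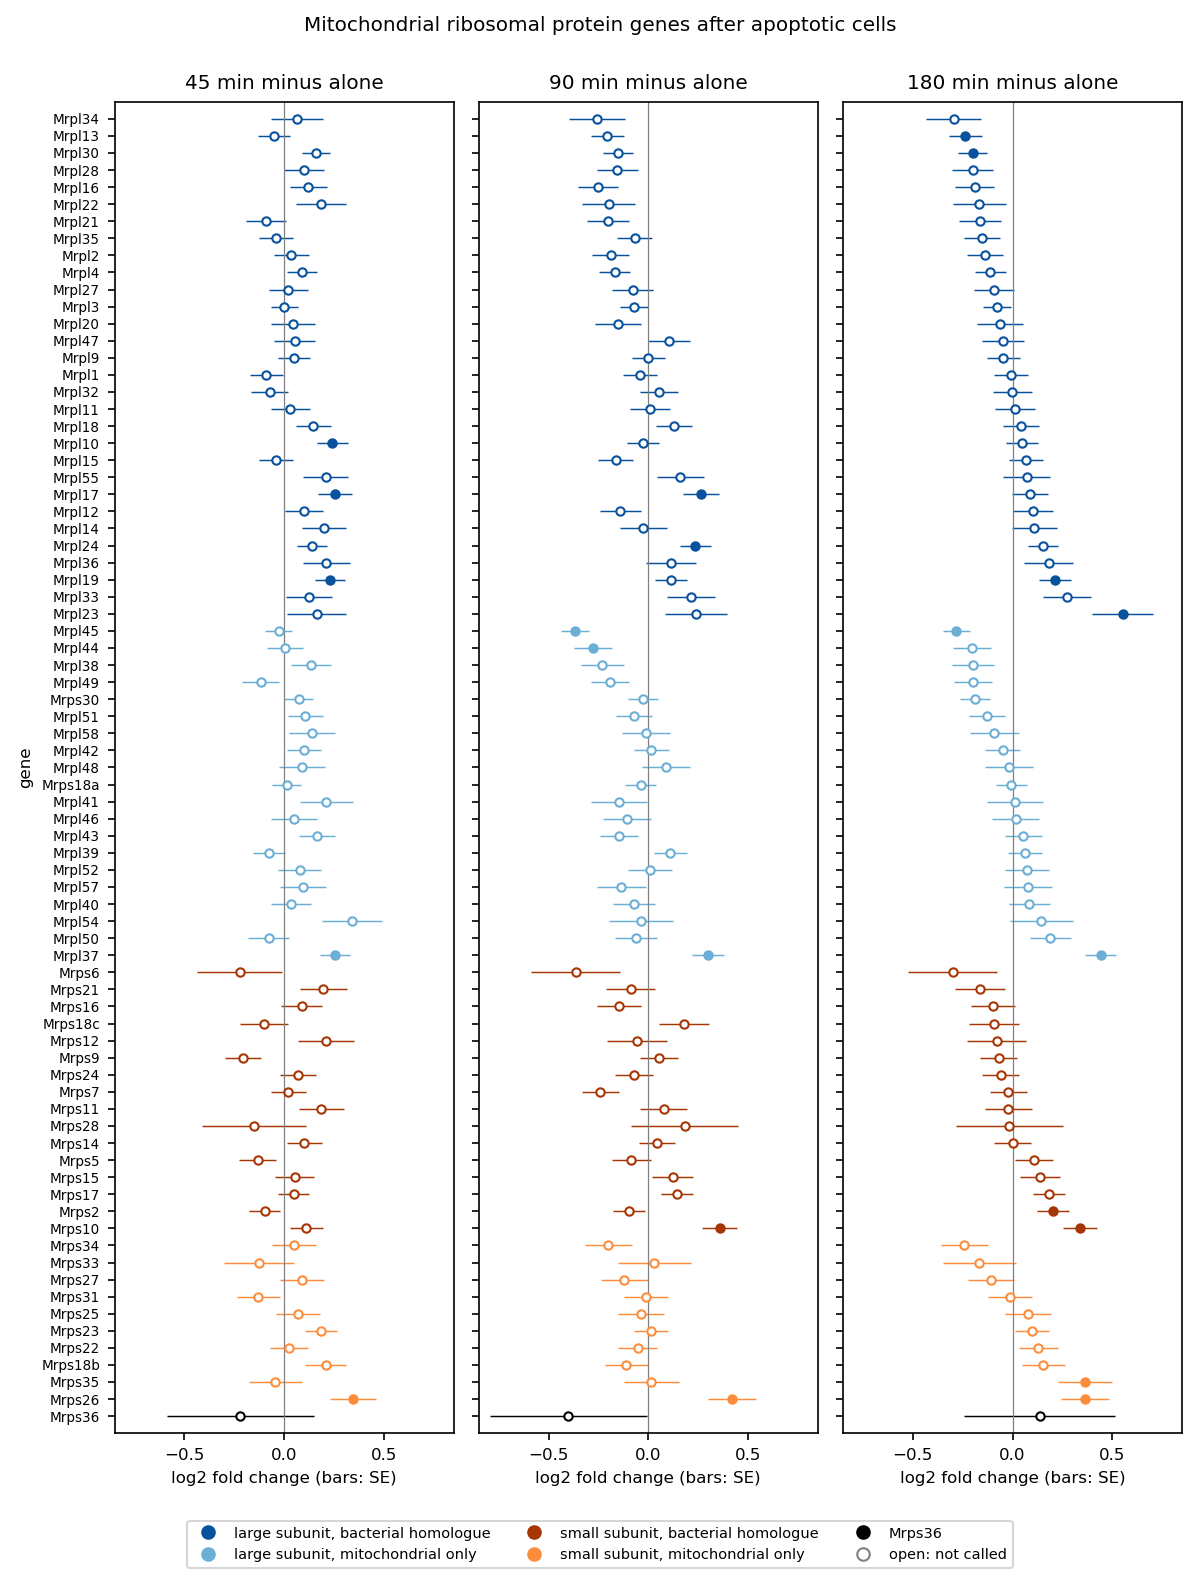
Log2 fold change of each of the 77 genes against macrophages alone at 45, 90 and 180 min, with SE bars, grouped and coloured by role and ordered by the value at 180 min. Filled points were called at an adjusted p under 0.05, and open points were not. Mrpl23 at 180 min (0.55) is the one point beyond 0.5 among those against macrophages alone.

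Among proteins of the large subunit that are particular to mitochondria, Mrpl45 was called lower in 4 of the 6 comparisons. It lies beside the exit of the peptide tunnel and is known to tie the ribosome to the inner membrane. Its level was 57.9, 50.1, 57.3 and 54.3 CPM in macrophages alone and 54.8, 53.4, 52.8 and 54.4 CPM at 45 min. At 90 min it was 45.1, 40.6, 42.4 and 42.4 CPM and at 180 min 51.8, 45.5, 40.7 and 43.5 CPM. All 90 min libraries lay below all libraries of macrophages alone and of 45 min, and at 180 min only library 1 reached the range of macrophages alone. Against macrophages alone it fell by 0.37 (SE 0.07, adjusted p = 4.18e-05) on the log2 scale at 90 min and by 0.28 (SE 0.07, adjusted p = 0.000871) at 180 min, and was -0.03 (SE 0.07, adjusted p = 0.868) at 45 min. It fell by 0.34 (SE 0.07, adjusted p = 0.000105) from 45 to 90 min and by 0.25 (SE 0.07, adjusted p = 0.00219) from 45 to 180 min. These 4 calls held in all 24 alternative settings.

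Mrpl37 went the other way. Its level was 26.9, 29.7, 28.1 and 28.3 CPM in macrophages alone, 31.9, 34.8, 32.5 and 35.6 at 45 min, 36.3, 31.9, 38.2 and 32.9 at 90 min and 38.7, 36.8, 41.5 and 36.1 at 180 min. Every library with apoptotic cells was above every library without. The log2 rise against macrophages alone was 0.26 (SE 0.08, adjusted p = 0.0169) at 45 min, 0.30 (SE 0.08, adjusted p = 0.00313) at 90 min and 0.44 (SE 0.08, adjusted p = 4.70e-06) at 180 min. The first of these calls was lost without library 1 of macrophages alone or library 4 of 45 min (adjusted p = 0.0528 to 0.0583), and the other two held in every setting. Mrpl37 also rose by 0.18 (SE 0.08, adjusted p = 0.0491) from 45 to 180 min, a call lost in 20 of the 24 settings, among them 15 of the 16 fits that leave out 1 library (adjusted p up to 0.230).

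The other genes of this group that were called mostly fell after 45 min. Mrpl38 was 21.7, 21.6, 19.5 and 19.1 CPM at 45 min, 15.9, 16.99, 17.3 and 13.3 at 90 min and 14.4, 20.9, 14.8 and 15.6 at 180 min. It fell by 0.37 (SE 0.10, adjusted p = 0.00578) from 45 to 90 min, where the groups did not overlap, and by 0.34 (SE 0.10, adjusted p = 0.00797) from 45 to 180 min, where library 2 of 180 min was within the range of 45 min. Mrps30, which encodes a large subunit protein, was 37.6, 36.4, 39 and 38.4 CPM at 45 min and 33.9, 29.8, 29.9 and 32.7 CPM at 180 min, without overlap, a fall of 0.26 (SE 0.07, adjusted p = 0.00409). Mrpl43 was 24.4, 23.4, 26.2 and 26.2 CPM at 45 min and 19.5, 22.6, 18.5 and 19.7 CPM at 90 min and fell by 0.32 (SE 0.09, adjusted p = 0.00814), but 33.4% of its exon bases lie opposite Twnk, the mitochondrial DNA helicase gene. Whether the counting used strand is not given in the sources used here, so reads of such pairs may be mixed. These 4 calls held in every setting. Mrpl44, whose protein resembles ribonuclease III, fell by 0.28 (SE 0.09, adjusted p = 0.027) at 90 min against macrophages alone and by 0.28 (SE 0.09, adjusted p = 0.0175) from 45 to 90 min. The first call was lost without library 2 or 4 of macrophages alone or library 2 of 90 min (adjusted p = 0.0518 to 0.274) and the second without library 1 of 45 min or library 2 of 90 min (adjusted p = 0.0519 to 0.16); library 2 of 90 min, at 17.5 CPM, was the lowest of the 16. Mrpl41 fell by 0.36 (SE 0.14, adjusted p = 0.0467) from 45 to 90 min and Mrpl51 by 0.24 (SE 0.09, adjusted p = 0.0305) from 45 to 180 min, and Mrpl50 rose by 0.27 (SE 0.10, adjusted p = 0.0364) from 45 to 180 min. The call of Mrpl41 was lost without library 1, 3 or 4 of 45 min or library 1 or 4 of 90 min (adjusted p = 0.0508 to 0.173), that of Mrpl51 without library 3 or 4 of 45 min or library 2 of 180 min (adjusted p = 0.0562 to 0.102) and that of Mrpl50 without library 3 of macrophages alone or library 1, 2 or 3 of 45 min or library 1, 2, 3 or 4 of 180 min (adjusted p = 0.0503 to 0.155). Of the 20 tested genes of this group, 0 rose and 5 fell from 45 to 90 min (median -0.13), and 2 rose and 4 fell from 45 to 180 min (median -0.11). Over all genes tested, 14.8% rose and 13.3% fell from 45 to 90 min, and 18.3% rose and 18.0% fell from 45 to 180 min. Whether this group differed from all genes was not tested.

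**Figure D5:**
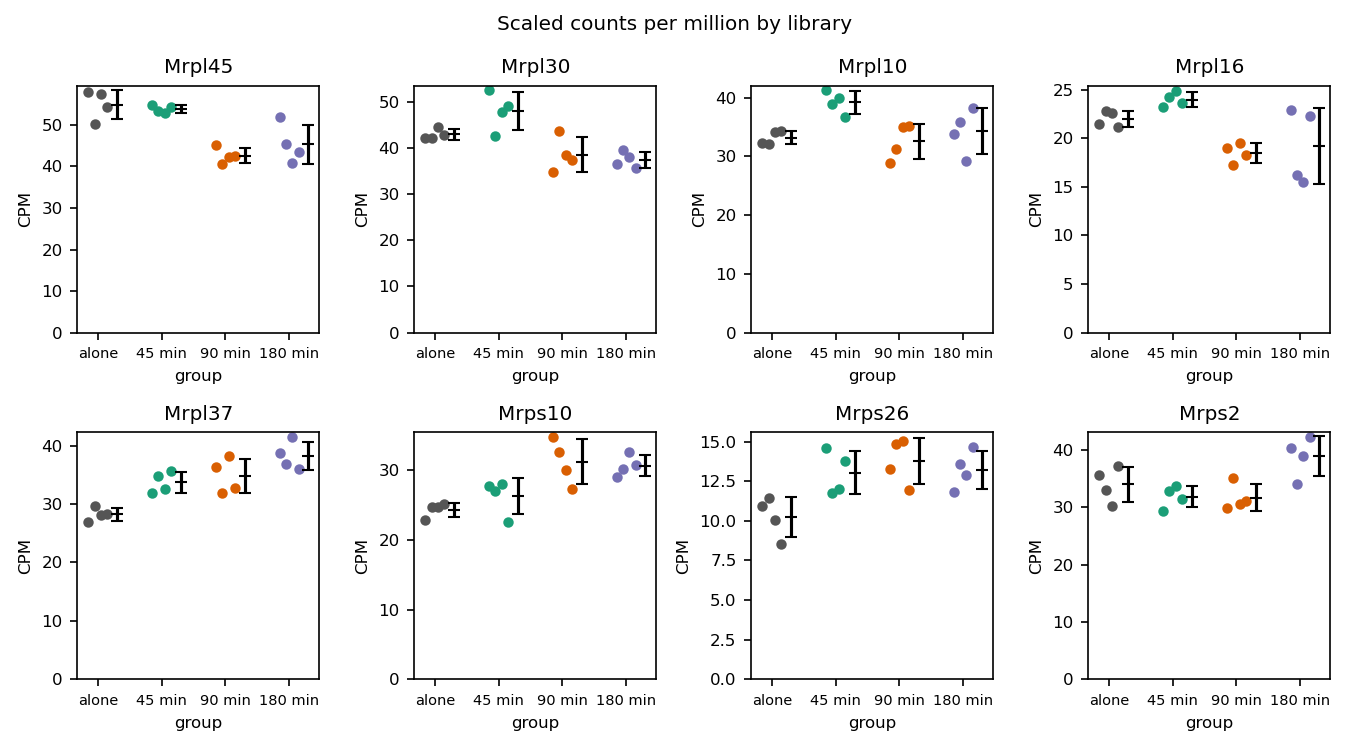
CPM of 8 genes in each of the 16 libraries, with the mean and SD of each group of 4. Mrpl45, Mrpl30, Mrpl10 and Mrpl16 (top) are lower at 90 min than at 45 min, Mrpl37, Mrps10 and Mrps26 are higher with apoptotic cells than without at 90 and 180 min, and Mrps2 is higher at 180 min than at 45 and 90 min.

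Counterparts of bacterial large subunit proteins that were called between 45 min and a later time were lower later, except Mrpl23. Mrpl30, first of the 77 in level per length in macrophages alone and at 45 min, was 42.1, 42.1, 44.4 and 42.8 CPM in macrophages alone and 52.5, 42.6, 47.8 and 48.9 CPM at 45 min. It was 34.7, 43.6, 38.3 and 37.3 CPM at 90 min and 36.4, 39.6, 37.9 and 35.7 CPM at 180 min. The libraries of 180 min lay below all of macrophages alone and of 45 min, while library 2 of 90 min overlapped both. It fell by 0.31 (SE 0.07, adjusted p = 0.000631) from 45 to 90 min and by 0.36 (SE 0.07, adjusted p = 5.00e-05) from 45 to 180 min, and both calls held in every setting. Against macrophages alone it fell by 0.20 (SE 0.07, adjusted p = 0.0305) at 180 min, a call lost without library 2, 3 or 4 of macrophages alone or library 1 or 4 of 180 min (adjusted p = 0.0548 to 0.115).

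Mrpl10, which forms the base of the stalk that recruits translation factors, was 32.2, 32.1, 34.1 and 34.2 CPM in macrophages alone and 41.3, 38.9, 39.95 and 36.6 CPM at 45 min. At 90 min it was 28.8, 31.2, 34.9 and 35.1 CPM and at 180 min 33.9, 35.9, 29.1 and 38.2 CPM. The 45 min libraries were above all libraries of macrophages alone and of 90 min, and overlapped those of 180 min. It rose by 0.24 (SE 0.08, adjusted p = 0.0307) at 45 min against macrophages alone and fell by 0.27 (SE 0.08, adjusted p = 0.0081) from 45 to 90 min and by 0.20 (SE 0.08, adjusted p = 0.045) from 45 to 180 min. Only the fall from 45 to 90 min held in every setting. The rise at 45 min was lost without library 1 or 2 of macrophages alone or library 1 or 3 of 45 min (adjusted p = 0.0516 to 0.0756) and the fall from 45 to 180 min without library 1, 2 or 3 of 45 min or library 1 or 3 of 180 min (adjusted p = 0.052 to 0.259). Of its exon bases, 14.1% lie opposite another gene model.

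Mrpl16 was 23.2, 24.2, 24.9 and 23.6 CPM at 45 min, 18.98, 17.2, 19.5 and 18.2 at 90 min and 22.9, 16.2, 15.5 and 22.3 at 180 min. It fell by 0.38 (SE 0.10, adjusted p = 0.00274) from 45 to 90 min in every setting and by 0.31 (SE 0.10, adjusted p = 0.00887) from 45 to 180 min, a call lost without library 3 of 180 min (adjusted p = 0.0976). At 180 min libraries 2 and 3 were below all of 90 min and libraries 1 and 4 above them, while all 4 were below those of 45 min. Mrpl4 was 37.5, 35.8, 36.3 and 36.4 CPM at 45 min and 28.1, 35.4, 30.2 and 28.3 CPM at 90 min, without overlap, and fell by 0.26 (SE 0.08, adjusted p = 0.00849) in every setting. It fell by 0.20 (SE 0.08, adjusted p = 0.0331) from 45 to 180 min, a call lost without library 1 or 4 of 45 min or library 3 or 4 of 180 min (adjusted p = 0.0507 to 0.0974).

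Mrpl23, which lies at the exit of the tunnel, was 6.49, 6.82, 7.14 and 5.04 CPM in macrophages alone and 7.04, 6.23, 8.57 and 6.92 CPM at 45 min. It was 7.23, 7.86, 6.65 and 8.42 CPM at 90 min and 11.7, 10.6, 7.48 and 8.38 CPM at 180 min. All 180 min libraries were above all of macrophages alone, and libraries 1 and 2 of 180 min were the highest of the 16. The rise at 180 min was 0.55 (SE 0.15, adjusted p = 0.00349), the largest of the 77 against macrophages alone at any time, and was called in every setting. The rise from 45 to 180 min was 0.39 (SE 0.15, adjusted p = 0.0356), a call lost without library 1, 2 or 4 of 45 min or library 1 or 2 of 180 min (adjusted p = 0.0792 to 0.207). The processed pseudogene Mrpl23-ps1 had 89 counts beside 2663 of Mrpl23, and reads that match both could have been counted for either or for neither.

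Other calls in this group were each lost when any 1 of several libraries was left out. Mrpl17 rose by 0.26 (SE 0.09, adjusted p = 0.0452) at 45 min and 0.26 (SE 0.09, adjusted p = 0.0279) at 90 min, lost without library 1, 2 or 4 of macrophages alone or library 1, 2 or 4 of 45 min (adjusted p = 0.0529 to 0.132) and without library 1 or 2 of macrophages alone or library 3 or 4 of 90 min (adjusted p = 0.0719 to 0.156). Mrpl19 rose by 0.23 (SE 0.08, adjusted p = 0.0396) at 45 min and 0.21 (SE 0.08, adjusted p = 0.0324) at 180 min, lost without library 1, 2 or 4 of macrophages alone or library 1 or 3 of 45 min (adjusted p = 0.0531 to 0.144) and without library 1 or 4 of macrophages alone or library 1, 2 or 3 of 180 min (adjusted p = 0.0627 to 0.123). In the fits that lost the call at 45 min, the log2 rise was 0.22 to 0.28 for Mrpl17 and 0.20 to 0.25 for Mrpl19. Mrpl24 rose by 0.24 (SE 0.08, adjusted p = 0.02) at 90 min, lost without library 3 or 4 of macrophages alone or library 2 or 3 of 90 min (adjusted p = 0.0703 to 0.107). Of the exon bases of Mrpl19 and Mrpl24, 36.0% and 26.3% lie opposite another gene. Mrpl13 fell by 0.24 (SE 0.08, adjusted p = 0.0221) at 180 min against macrophages alone, a call lost without library 3 or 4 of macrophages alone or library 2 or 4 of 180 min (adjusted p = 0.0528 to 0.197). Mrpl22 fell by 0.38 (SE 0.13, adjusted p = 0.0233) from 45 to 90 min, lost without library 1 or 3 of 45 min or library 1 or 2 of 90 min (adjusted p = 0.0531 to 0.0779), and by 0.35 (SE 0.13, adjusted p = 0.0288) from 45 to 180 min, lost without library 1 or 3 of 45 min or library 2 or 3 of 180 min (adjusted p = 0.0747 to 0.108). From 45 to 180 min Mrpl28 fell by 0.30 (SE 0.10, adjusted p = 0.0171), lost without library 3 of 45 min or library 2 or 4 of 180 min (adjusted p = 0.0767 to 0.1), and Mrpl34 by 0.36 (SE 0.14, adjusted p = 0.034), lost without library 1 or 3 of 45 min or library 1 or 4 of 180 min (adjusted p = 0.0831 to 0.217). Of the 30 genes of this group, 0 rose and 5 fell from 45 to 90 min (median -0.11) and 1 rose and 7 fell from 45 to 180 min (median -0.10). Over all genes tested, 14.8% rose and 13.3% fell from 45 to 90 min, and 18.3% rose and 18.0% fell from 45 to 180 min. Whether this group differed from all genes was not tested.

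In the small subunit, the few genes called against macrophages alone all rose. Of the 29 genes with small subunit symbols, 1 rose at 45 min, 2 at 90 min and 4 at 180 min, and 0 fell. Their medians were 0.05, -0.04 and -0.01. Over all genes tested, 4.69%, 11.1% and 15.1% rose at these times, and 6.11%, 9.97% and 16% fell. Whether the 29 genes differed from all genes was not tested. Mrps10, the counterpart of bacterial S10, was 22.9, 24.7, 24.7 and 25.1 CPM in macrophages alone and 27.8, 27.03, 28.1 and 22.5 CPM at 45 min. It was 34.8, 32.6, 30.1 and 27.3 CPM at 90 min and 29.1, 30.1, 32.6 and 30.8 CPM at 180 min. Every library of 90 and 180 min lay above every library of macrophages alone, and at 45 min library 4 was below them. The rise against macrophages alone was 0.36 (SE 0.09, adjusted p = 0.00131) at 90 min and 0.34 (SE 0.09, adjusted p = 0.00137) at 180 min, in every setting. From 45 min it rose by 0.25 (SE 0.08, adjusted p = 0.0235) to 90 min and 0.23 (SE 0.08, adjusted p = 0.0297) to 180 min. The first of these was lost without library 4 of 45 min or library 1 or 2 of 90 min (adjusted p = 0.0879 to 0.212) and the second without library 4 of 45 min or library 3 or 4 of 180 min (adjusted p = 0.065 to 0.22).

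Mrps26, which is particular to mitochondria and among the least expressed per length, was 10.96, 11.4, 10.1 and 8.53 CPM in macrophages alone and 14.6, 11.7, 12.04 and 13.8 CPM at 45 min. It was 13.3, 14.8, 15.1 and 11.96 CPM at 90 min and 11.8, 13.6, 12.9 and 14.7 CPM at 180 min, so every library with apoptotic cells was above every library without. The rise was 0.34 (SE 0.12, adjusted p = 0.0421) at 45 min, 0.42 (SE 0.12, adjusted p = 0.00753) at 90 min and 0.36 (SE 0.12, adjusted p = 0.0146) at 180 min. The call at 90 min held in every setting, that at 45 min was lost without library 3 or 4 of macrophages alone or library 1 or 4 of 45 min (adjusted p = 0.0714 to 0.161) and that at 180 min without library 4 of macrophages alone or library 4 of 180 min (adjusted p = 0.0648 to 0.073).

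Mrps2, the counterpart of bacterial S2, was 35.6, 33.1, 30.3 and 37.3 CPM in macrophages alone and 29.4, 32.8, 33.7 and 31.4 CPM at 45 min. It was 29.9, 35.1, 30.6 and 31.2 CPM at 90 min and 40.3, 34.1, 38.9 and 42.3 CPM at 180 min. The 180 min libraries were all above those of 45 min, and library 2 of 90 min overlapped them. It rose by 0.30 (SE 0.08, adjusted p = 0.00734) from 90 to 180 min and by 0.30 (SE 0.08, adjusted p = 0.00182) from 45 to 180 min, in every setting. Against macrophages alone it rose by 0.20 (SE 0.08, adjusted p = 0.0444) at 180 min, a call lost without library 2 or 3 of macrophages alone or library 1, 3 or 4 of 180 min (adjusted p = 0.0804 to 0.182).

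Mrps35 was 9.67, 14.8, 11.3 and 10.4 CPM in macrophages alone and 12, 17.8, 15.7 and 14.2 CPM at 180 min, with overlap at library 2 of macrophages alone. It rose by 0.36 (SE 0.14, adjusted p = 0.0333) against macrophages alone, lost without library 1, 3 or 4 of macrophages alone or library 2 or 3 of 180 min (adjusted p = 0.0652 to 0.153), and by 0.41 (SE 0.13, adjusted p = 0.0124) from 45 to 180 min, lost without library 2 or 3 of 45 min or library 2 of 180 min (adjusted p = 0.0564 to 0.0789). Mrps5 rose by 0.24 (SE 0.10, adjusted p = 0.0428) from 45 to 180 min, a call lost in 13 of the 16 fits without 1 library (adjusted p up to 0.194). Mrps9 rose by 0.26 (SE 0.09, adjusted p = 0.0293) from 45 to 90 min, but was -0.02 with the length and GC trend removed and was not called without library 1, 2, 3 or 4 of 45 min or library 1 or 3 of 90 min (adjusted p = 0.0562 to 0.192).

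Small subunit genes that fell did so from 45 min on. Mrps18b fell by 0.32 (SE 0.11, adjusted p = 0.0202) from 45 to 90 min, lost without library 4 of 90 min (adjusted p = 0.0887), and 30.5% of its exon bases lie opposite another gene model. Mrps7 fell by 0.26 (SE 0.09, adjusted p = 0.027), lost without library 1 of 45 min or library 3 or 4 of 90 min (adjusted p = 0.052 to 0.116). From 45 to 180 min Mrps21 fell by 0.36 (SE 0.12, adjusted p = 0.0158), lost without library 3 of 180 min (adjusted p = 0.0541), and Mrps34 by 0.29 (SE 0.11, adjusted p = 0.0394), lost without library 1 or 4 of 45 min or library 1 or 2 of 180 min (adjusted p = 0.0521 to 0.109). Of the exon bases of Mrps34, 37.0% are shared with Nme3 on the same strand and 63.4% lie opposite Mapk8ip3, so its value is uncertain. Of the 16 genes with bacterial counterparts 2 rose and 1 fell from 45 to 90 min, and of the 10 particular to mitochondria 0 rose and 1 fell. Over all genes tested, 14.8% rose and 13.3% fell between these times. That the small subunit differed from the large subunit was not tested.

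The 46 genes called in no comparison were 28 with large and 18 with small subunit symbols. Mrpl12, which forms the stalk and also binds the mitochondrial RNA polymerase, was 0.10 at 45 min, -0.14 at 90 min and 0.10 at 180 min against macrophages alone (adjusted p = 0.606, 0.361 and 0.475). Among the 3 paralogues of bacterial S18, Mrps18a was 0.01, -0.04 and -0.01 at the 3 times, Mrps18b 0.21, -0.11 and 0.15, and Mrps18c -0.10, 0.18 and -0.09, with no call against macrophages alone. Mrps36 was -0.40 at 90 min and 0.14 at 180 min with no call. At 495 counts over 16 libraries its SE was 0.39 and 0.38, so a change of this size was not detectable at this depth, and its 3 pseudogenes (0, 4 and 29 counts) make its count uncertain. Across the 77 genes the median SE of a log2 fold change against macrophages alone was 0.10 at each time, and 69 genes had a mean level of at least 10 CPM.

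The proteins of the same ribosome whose genes carry other symbols were 5 (Dap3, Chchd1, Aurkaip1, Ptcd3 and Gadd45gip1). From 45 to 90 min 0 rose and 2 fell, Aurkaip1 by 0.30 (SE 0.08, adjusted p = 0.00321) and Gadd45gip1 by 0.42 (SE 0.12, adjusted p = 0.00641), and the same 2 fell from 45 to 180 min, while Ptcd3 rose by 0.21 (SE 0.08, adjusted p = 0.0491). Among 26 assembly factors of the ribosome, 1 rose at 45 min, 4 at 90 min and 6 at 180 min against macrophages alone, and 0, 0 and 3 fell. The GTPase gene Gtpbp6 rose by 0.41 (SE 0.10, adjusted p = 0.00221), 0.77 (SE 0.10, adjusted p = 8.87e-09) and 0.73 (SE 0.10, adjusted p = 1.07e-08) at the 3 times. Mettl17, which acts in assembly of the small subunit, rose by 0.65 (SE 0.15, adjusted p = 0.000747) at 90 min and 0.73 (SE 0.15, adjusted p = 7.39e-05) at 180 min. Rbfa, a ribosome binding factor, fell by 0.24 (SE 0.09, adjusted p = 0.0378) at 180 min. The medians of this list were 0.03, 0.08 and 0.09 at the 3 times.

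Of 15 matched translation factors, 0 rose and 1 fell at 45 min, 2 rose and 1 fell at 90 min, and 1 rose and 1 fell at 180 min against macrophages alone. Mtfmt, which formylates the initiator methionyl-tRNA, rose by 0.42 (SE 0.13, adjusted p = 0.0143) at 90 min, and Tsfm, the exchange factor of the elongation factor Tufm, by 0.43 (SE 0.12, adjusted p = 0.00511) at 180 min. Tufm itself fell by 0.37 (SE 0.09, adjusted p = 0.000422) from 45 to 180 min. Of 17 mitochondrial aminoacyl-tRNA synthetases, 2 rose at 90 min and 5 at 180 min, and only Mars2 fell at 45 min. Mars2, which charges methionine, changed by more than any of the 77 genes at each time against macrophages alone. It fell by 0.56 (SE 0.17, adjusted p = 0.0217) at 45 min and rose by 0.98 (SE 0.16, adjusted p = 5.29e-06) at 90 min and 0.93 (SE 0.16, adjusted p = 5.53e-06) at 180 min.

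A list of genes for transcription and RNA processing in the organelle also held Polg and Twnk, which act in copying its DNA. Of its 11 matched genes, 0 were called at 45 min, 2 rose at 90 min, and 2 rose and 1 fell at 180 min. The DNA polymerase Polg rose by 0.41 (SE 0.06, adjusted p = 2.22e-07) and Trmt10c, a subunit of the RNase that frees transfer RNAs, by 0.35 (SE 0.09, adjusted p = 0.000835) at 180 min, while Pnpt1, an RNA-degrading enzyme, fell by 0.41 (SE 0.06, adjusted p = 3.33e-08). Among 9 tested regulators of mitochondrial biogenesis, Myc rose by 0.61 (SE 0.10, adjusted p = 9.15e-06) at 45 min, 1.28 (SE 0.10, adjusted p = 1.00e-15) at 90 min and 0.85 (SE 0.10, adjusted p = 6.24e-10) at 180 min. Pprc1, a coactivator related to PGC-1, rose by 0.41 (SE 0.05, adjusted p = 3.61e-09) at 180 min, where Nrf1, the factor named for the NRF1 motif, fell by 0.27 (SE 0.08, adjusted p = 0.00756) and Yy1 by 0.20 (SE 0.05, adjusted p = 0.00112). Esrra, a nuclear receptor, rose by 0.19 (SE 0.06, adjusted p = 0.0441) at 45 min and fell by 0.23 (SE 0.07, adjusted p = 0.00466) from 45 to 90 min.

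The RNAs that this ribosome contains and reads changed more, and in another order. mt-Rnr1 fell by 0.25 (SE 0.06, adjusted p = 0.00217) at 45 min and rose by 0.46 (SE 0.06, adjusted p = 6.67e-09) and 0.66 (SE 0.06, adjusted p = 3.18e-14) at 90 and 180 min. Library 1 of 90 min stood apart for mt-Rnr1, at 8662 CPM beside 12240 to 12710 in the other 3, and without it the rise at 90 min was 0.57 (SE 0.04, adjusted p = 3.16e-16). From 90 to 180 min mt-Rnr1 rose by 0.19 (SE 0.06, adjusted p = 0.0207). Without that library this difference was 0.08 (SE 0.04, adjusted p = 0.267) and was not called. mt-Rnr2 fell by 0.34 (SE 0.04, adjusted p = 2.37e-09) and then rose by 0.39 (SE 0.04, adjusted p = 1.17e-11) and 0.60 (SE 0.04, adjusted p = 1.61e-19). Of 13 messages of mitochondrial DNA, only 7 passed the filter on low counts. Mitochondrially encoded genes held 4.45% of counts in macrophages alone, and mt-Rnr1 and mt-Rnr2 made up 4.23%, so the messages were a small part. Of the 7 tested messages, 6 fell at 45 min and 7 rose at both later times, with medians of -0.31, 0.61 and 1.01. The medians of the 77 protein genes at the same times were 0.07, -0.05 and -0.01.

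The proteins of the cytosolic ribosome (79 genes with Rpl or Rps symbols) are the nearest family by function. Of these, 36 rose and 0 fell at 45 min, 4 rose and 20 fell at 90 min, and 6 rose and 11 fell at 180 min, with medians of 0.17, -0.07 and -0.05. From 45 to 90 min 1 rose and 60 fell (median -0.24), beside 2 and 12 of the 77 mitochondrial ones (median -0.11). Cytosolic ribosomal protein genes have many processed pseudogenes that may share reads with them, and the difference between the families was not tested.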

How the data were processed

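The deposited values are read counts per gene, not normalized by the authors, in 1 table for the 16 libraries. STAR 2.7.9a, SAMtools, HTSeq and the build mm39 are named in the submitters' processing notes. Not given in the sources used here are the counting's strand setting, its rule for shared reads and its handling of human reads. Column names give the group but no replicate number. Symbols, transcript lengths and overlaps came from GENCODE M21, an annotation of the build before mm39. Genes were filtered with edgeR 4.0.16 (R 4.3.3; minimum count 10, minimum total 15) with TMM scaling. They were tested with its quasi-likelihood test over all 16 libraries, with Benjamini-Hochberg adjustment over 14168 genes and calls at an adjusted p under 0.05. CPM use the scaled library size and shares the plain total. A standard error is the log2 fold change divided by the square root of F. Replicate libraries differed by more than sampling noise (chi-square per degree of freedom 3.98 to 10.2). Alternatives included DESeq2 1.42.0, other scaling, filtering and depth, and leaving out each library. The genes and lists were chosen with earlier results of these data known. Named genes were those called in each comparison, the extremes of level, paralogues and the lists' genes of smallest p; Mtrfr and Prorp matched no gene.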

Additional observations from a re-analysis of the deposited data

Results flagged for a closer look

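For 13 effects of named genes, the change against macrophages alone differed between times by the test of that difference. That test is the direct comparison of the times, and the shared macrophages alone cancel out of its log2 value. These are therefore calls already given above and not further results. From 45 to 90 min the log2 effect moved by -0.34 for Mrpl45, -0.28 for Mrpl44, -0.27 for Mrpl10 and 0.25 for Mrps10. From 90 to 180 min it moved by 0.30 for Mrps2. From 45 to 180 min it moved by 0.41 for Mrps35, 0.39 for Mrpl23, 0.30 for Mrps2, 0.23 for Mrps10 and 0.18 for Mrpl37, and by -0.20 for Mrpl10, -0.25 for Mrpl45 and -0.36 for Mrpl30. Of these, the calls of Mrpl45, Mrpl30 and Mrps2 and that of Mrpl10 from 45 to 90 min held in all 24 alternative settings. In 152 groups of 4 libraries (the 31 genes called in some comparison and 7 summed or ribosomal RNA measures), 4 had a library set far from the other 3 by Dixon's criterion, where chance would give about 1 in 20. These were Mrpl50 at 180 min (library 1 at 20.8 CPM beside 21.8 to 21.9), Mrpl51 at 180 min (library 2 at 18.9 beside 22.4 to 22.6), Mrps30 at 90 min (library 4 at 36.8 beside 34.6 to 34.9) and mt-Rnr1 at 90 min (library 1 at 8662 beside 12240 to 12710).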

How the results depend on the processing

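Of the 57 calls in the 6 comparisons, 21 held in all 24 alternatives, 36 were lost in at least 1 and 1 reversed: Mrps9 from 45 to 90 min was -0.02 with the length and GC trend removed. Leaving mitochondrial genes out of the scaling or fitting only the groups compared kept all 57, DESeq2 size factors in edgeR kept 56, coding genes only 51, DESeq2 45, no filter 44 and thinning to the smallest total, 10690809 counts, 37. With no filter, 3 genes rose at 45 min, 0 from 45 to 90 min and 2 from 45 to 180 min. With thinning these counts were 2, 0 and 3, and 12 genes showed any change. With DESeq2, 3 rose from 45 to 180 min. With the length and GC trend removed, 8 rose at 45 min, 10 fell at 90 min (median -0.12), 14 fell at 180 min, 0 rose and 28 fell from 45 to 90 min (median -0.20), 2 rose and 22 fell from 45 to 180 min (median -0.17), and 34 showed any change; the cause was not tested. All genes moved in that fit too, with 8.05% higher and 3.62% lower at 45 min, 15.2% lower at 90 min, 21.4% lower at 180 min, 21.9% lower from 45 to 90 min and 27.2% lower from 45 to 180 min. Against nuclear counts only, the summed shares were 0.165% alone, 0.170% at 45 min, 0.163% at 90 min and 0.173% at 180 min.

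Leaving out each library in turn gave 1 to 5 genes higher and 0 lower at 45 min (median 0.074 to 0.109), 3 to 5 higher and 2 to 5 lower at 90 min (median -0.07 to -0.04), and 4 to 7 higher and 1 to 5 lower at 180 min (median -0.02 to 0.01). From 45 to 90 min it gave 0 to 2 higher and 8 to 16 lower (median -0.14 to -0.11), from 90 to 180 min 1 to 3 higher and 0 lower (median 0.02 to 0.05), and from 45 to 180 min 2 to 6 higher and 8 to 15 lower (median -0.10 to -0.06). Any change was called for 18 to 25 genes. The summed share was 0.157% to 0.158% alone, 0.163% to 0.165% at 45 min, 0.152% to 0.154% at 90 min and 0.159% to 0.162% at 180 min. No paired analysis was possible because the table's column names carry no replicate number. The depth of 10.7 M to 41.7 M counts gives a median SE of 0.10 on the log2 scale, so changes of the size seen here sit near what could be called.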

Other observations

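Many of the 77 genes start back to back with another gene. Of them, 18 (23.4%) had a coding gene that starts within 1 kb upstream on the opposite strand, beside 11.2% of the 11432 coding genes tested. The pairs were named after their values were seen. Ppp1r10, a regulatory subunit of a protein phosphatase, starts beside Mrps18b and rose by 0.54 (SE 0.05) at 45 min, 1.40 (SE 0.05) at 90 min and 0.63 (SE 0.05) at 180 min against macrophages alone, while Mrps18b was 0.21, -0.11 and 0.15 with no call (edgeR's quasi-likelihood test, adjusted p of Ppp1r10 = 2.65e-13, 7.58e-32 and 8.90e-17). Eme2, beside Mrps34, rose by 0.75 at 90 min and 0.90 at 180 min (SE 0.12 each), where Mrps34 was -0.20 and -0.24 with no call. Mitd1, beside Mrpl30, fell by 0.22 (SE 0.09) at 180 min and by 0.31 (SE 0.09) from 45 to 180 min, where Mrpl30 fell by 0.20 and 0.36. The pair parted between neighbouring times. From 45 to 90 min Mitd1 was 0.03 (SE 0.09) with no call, where Mrpl30 was called lower. From 90 to 180 min Mitd1 fell by 0.34 (SE 0.09), where Mrpl30 had no call. Fau, beside Mrpl49, encodes a protein of the cytosolic ribosome and rose by 0.19 (SE 0.05) at 45 min, where Mrpl49 was -0.12 with no call. Of these 18, only Mrps12 had a partner on the lists of mitochondrial genes. That partner was Sars2, the mitochondrial synthetase for serine, and neither was called at any time. Mrpl46 with Mrps11 and Mrpl43 with Twnk share exon bases on opposite strands but were not counted as pairs by this upstream rule.

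Of the 77 genes, 27 share exon bases with a gene on the opposite strand, 14 of them over at least 10% of their length, and 7 share bases on the same strand. Mrps25 has the largest such share, 69.8% opposite Nr2c2. For these genes the values depend on how the counting treated strand.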
